A study of Homo sapiens with 12 samples.

Results

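PC3 is an established line from human prostate adenocarcinoma. It was transfected with a non-targeting siRNA (siControl) or with siRNA against LARP4A (siLARP4A), and both groups were compared here by sequencing of poly(A) RNA. The comparison holds 4 of the 12 libraries of the series, 2 for each siRNA, chosen by their labels. All were wild type in genotype, received 10 nM siRNA with a lipid reagent and were harvested after 72 h. The series also has 2 libraries of PC3 with siRNA against LARP4B (siLARP4B) and 6 libraries of the osteosarcoma line MG63 with the same 3 siRNAs. The series calls the replicates biological without saying whether they came from separate cultures, so p-values measure the spread between these samples, which may be technical. How many siRNA sequences were used for each target, and which, is not given in the sources used here. The title of the series places LARP4A and its relative LARP4B in tumour growth and metastasis.

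LARP4A, encoded by LARP4, is a cytoplasmic RNA-binding protein of the La-related family. It binds poly(A) and the poly(A)-binding protein PABPC1, and is known to protect mRNA poly(A) tails from shortening and so to stabilise mRNAs, among them those of ribosomal proteins. mRNAs of ribosomal proteins and elongation factors begin with a C and a run of pyrimidines, the 5' terminal oligopyrimidine motif, which couples their translation to growth signals. G1/S genes are known targets of E2F transcription factors, and many interferon-induced genes carry an interferon-stimulated response element.

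The sequences here show the start sites of ribosomal protein and elongation factor genes and of COX7C, a respiratory chain gene, whose values are given later, from 15 bases before the start to 25 bases from it on. They come from RefSeq promoters on GRCh38.p14, and capitals mark the pyrimidine run that begins at the first transcribed base.
RPS16, chr19:39435925-39435964, minus strand: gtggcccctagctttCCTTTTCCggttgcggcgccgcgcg
RPS6, chr9:19380212-19380251, minus strand: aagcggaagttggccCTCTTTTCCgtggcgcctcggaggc
RPSA, chr3:39406705-39406744, plus strand: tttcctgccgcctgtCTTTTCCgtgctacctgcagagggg
EEF2, chr19:3985439-3985478, minus strand: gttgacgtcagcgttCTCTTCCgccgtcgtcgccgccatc
EEF1A1, chr6:73521008-73521047, minus strand: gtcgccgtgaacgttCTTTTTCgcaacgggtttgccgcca
COX7C, chr5:86617926-86617965, plus strand: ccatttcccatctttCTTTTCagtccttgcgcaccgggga
The motif was searched as a C at the start followed by at least 4 bases of C or T on the gene's strand. It was present in 4.07% of the 35116 promoters of the table. At any listed start it was present for 5.14% of the 27305 gene symbols in the table. It was present for 47 of the 63 cytosolic ribosomal protein genes in the table, or 74.6%. RPL3, also described later, is in the table without the run.

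For the G1/S genes the motif searched was TTTCCCGC, TTTGGCGC or TTTCGCGC on either strand, in the 300 bases from 250 before to 50 from the start on. It was present in 2.74% of all promoters, for 3.3% of all gene symbols and for 25 of 47 G1/S genes in the table, or 53.2%. A gene was taken to hold it when the promoter of any listed start did. Windows of 15 bases on either side are shown for the named genes that hold it, with the motif in capitals. The PCNA window belongs to another start than that of the transcript model counted here for PCNA (chr20:5114953-5119958, minus strand).
PCNA, chr20:5126659-5126696, minus strand: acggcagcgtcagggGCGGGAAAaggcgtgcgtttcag
MCM2, chr3:127598398-127598435, plus strand: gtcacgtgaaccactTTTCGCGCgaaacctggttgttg
CDC25A, chr3:48188439-48188476, minus strand: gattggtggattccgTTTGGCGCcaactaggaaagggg
For the interferon list the letters were TTTC, any 2 bases and TTTC on either strand. They were found in 3.57% of all promoters, for 4.38% of all gene symbols and for 25 of 36 listed genes in the table, or 69.4%.
IFIT1, chr10:89392492-89392531, plus strand: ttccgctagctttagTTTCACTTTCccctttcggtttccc
IFI44, chr1:78649756-78649795, plus strand: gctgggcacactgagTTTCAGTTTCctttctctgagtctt
BST2, chr19:17405736-17405775, minus strand: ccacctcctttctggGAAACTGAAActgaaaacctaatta
Each match describes these letters in these windows.

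The deposited tables give a fragment count and an FPKM value (fragments scaled to model length and library total) for each transcript model, and the model with the most fragments was kept for each gene symbol. Library totals behind these values ranged from 17960001 to 24864977 fragments in the 4 libraries, and between 18475 and 19142 genes had at least 1 fragment. Replicates correlated across genes at a Pearson r of 0.9925 for siControl and 0.9937 for siLARP4A on the log2 scale. By a chi-square over genes, divided by its degrees of freedom, replicates differed by 3.9 for siControl and 6.547 for siLARP4A, where 1 would be counting error alone. Of the epithelial markers checked, KRT8, KRT18, KRT19, EPCAM and CLDN4 had at least 546 fragments in each library. Of the androgen-responsive prostate markers HOXB13 had at least 6744, while KLK3 had 0 or 1 fragment, and KLK2 and FOLH1 had none. Of the neuroendocrine markers CHGA was at 0. The 7 neuroendocrine markers summed to 0.7385 and 1.032 FPKM with siControl and to 0.6701 and 0.7567 FPKM with siLARP4A.

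The targeted gene fell in both siLARP4A libraries. LARP4 (chr12:50400885-50480004, plus strand, hg38 per the submitters' processing notes) was at 19.0 and 19.4 FPKM in the siControl libraries and at 2.36 and 2.47 FPKM in the siLARP4A libraries. These values rest on 2214 and 2408 against 381 and 305 fragments. The groups lay far apart, and the level remaining was 12.7% of siControl, a log2 fold change of -2.98 (SE 0.069, adjusted p = 3.9e-13). Here and below, the adjusted p is from the quasi-likelihood test of edgeR, two-sided, with Benjamini-Hochberg adjustment over all 16066 genes tested, and a gene is called at an adjusted p under 0.05. LARP4B was at 7.02 and 7.18 FPKM with siControl and at 6.69 and 6.97 FPKM with siLARP4A, and was not called (log2 fold change -0.04, SE 0.063, adjusted p = 0.65).

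Of the genes tested, 5419 or 33.7% were called: 2835 were higher with siLARP4A (17.6%) and 2584 were lower (16.1%). Most of these changes were small, since 237 genes (1.48%) were at least 2-fold higher and 193 (1.2%) at least 2-fold lower. The median log2 fold change over all genes was 0.03. Both siLARP4A libraries lay outside the range of both siControl libraries for 10074 genes, 62.7% of those tested. Each count of list members below is to be read against these shares.

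**Figure D1:**
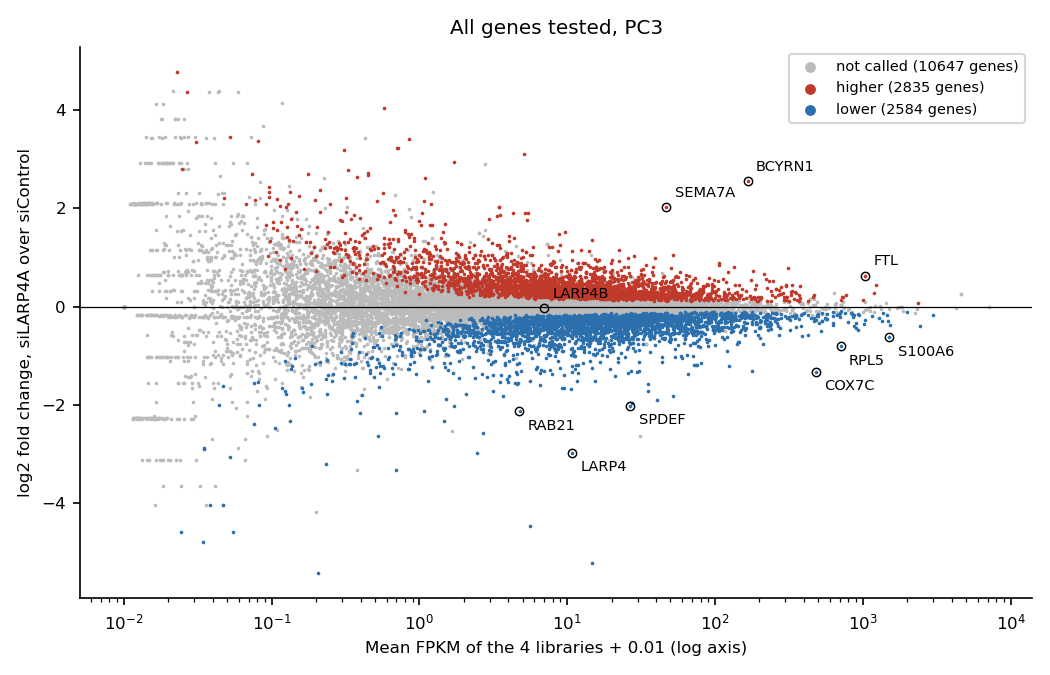
Each point is 1 of the 16066 genes tested in PC3, with the mean FPKM of the 4 libraries plus 0.01 on a log axis and the log2 fold change of siLARP4A over siControl on the other. Red points are the 2835 genes called higher and blue points the 2584 called lower. Open circles mark named genes: LARP4 and RAB21 lie below most genes of like level, and BCYRN1 and SEMA7A above them.

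Among the genes that fell most were SPDEF, an ETS transcription factor of prostate and secretory epithelium, and RAB21, a small GTPase of early endosomes that takes part in the traffic of integrins. RAB21 (chr12:71754863-71800286) was at 7.66 and 7.87 FPKM with siControl and at 1.82 and 1.68 FPKM with siLARP4A (log2 fold change -2.14, SE 0.069, adjusted p = 1.9e-11). SPDEF (chr6:34537802-34556329) was at 43.4 and 42.4 FPKM with siControl and at 10.0 and 11 FPKM with siLARP4A (log2 fold change -2.02, SE 0.066, adjusted p = 1.9e-11). For both genes the 2 libraries of each group lay close together, and 22.8% of the control level remained for RAB21 and 24.6% for SPDEF. FGFRL1, an FGF receptor without a kinase domain, went from 42.8 and 44.7 FPKM to 10.9 and 11.2 FPKM (log2 fold change -1.97, SE 0.049, adjusted p = 5.4e-13). PSMD10, a chaperone of proteasome assembly also called gankyrin, went from 63.7 and 64.9 FPKM to 17.9 and 16.1 FPKM. PEG10, an imprinted gene derived from a retrotransposon, went from 82.3 and 79.6 FPKM to 24.7 and 20.7 FPKM. The other members of the 12 lowest were ARL6IP6, the trefoil peptide gene TFF2, the tetraspanin gene TSPAN1, the BLOC-1 subunit gene BLOC1S6, the kinase gene STK26, the corepressor gene HR and the aldehyde dehydrogenase gene ALDH3A1. Their log2 fold changes ran from -1.82 for ARL6IP6 to -1.59 for ALDH3A1. TSPAN1 overlaps genes on the other strand, and whether the counting used strand is not given in the sources used here, so their fragments cannot be told apart.

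SEMA7A, a membrane-anchored semaphorin that signals through integrins and plexin C1, rose about as far as SPDEF fell. It was at 19.1 and 18.2 FPKM with siControl and at 71.1 and 79.0 FPKM with siLARP4A, a 4.06-fold rise (log2 fold change 2.02, SE 0.072, adjusted p = 4.5e-11; chr15:74409289-74433958). BCYRN1, an RNA transcribed by RNA polymerase III with an Alu-like 5' part, was at 36.5 and 60.9 FPKM with siControl and at 343.0 and 224.0 FPKM with siLARP4A, from 131, 232, 1704 and 850 fragments. The groups did not overlap, and its SE was the largest of the 12 highest genes (log2 fold change 2.56, SE 0.32, adjusted p = 1.8e-05). It overlaps EPCAM-DT on the other strand, and Alu-related and BCYRN1 pseudogene sequences elsewhere in the genome could share its fragments, so its values are uncertain. HIC2, a zinc-finger transcriptional repressor, went from 1.46 and 1.56 FPKM to 5.24 and 5.76 FPKM (log2 fold change 1.87, SE 0.088, adjusted p = 7.1e-10). TNFRSF1B, which encodes TNF receptor 2, went from 1.34 and 1.57 FPKM to 5.0 and 5.48 FPKM. COL1A1, the alpha-1 chain of type I collagen, went from 2.38 and 2.47 FPKM to 7.6 and 8.9 FPKM. In each of these genes both siLARP4A libraries were above 3 times the higher siControl library. The remaining genes of the 12 highest were B4GALNT1 (ganglioside synthesis), TLNRD1 (an actin-bundling protein), TNFAIP2 (a TNF-induced gene), HSPB8 (a small heat shock protein), STK40, BHLHA15 (a transcription factor of secretory cells) and UNKL. Their log2 fold changes ran from 1.25 for UNKL to 1.52 for B4GALNT1. B4GALNT1, BHLHA15 and UNKL overlap genes on the other strand.

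**Figure D2:**
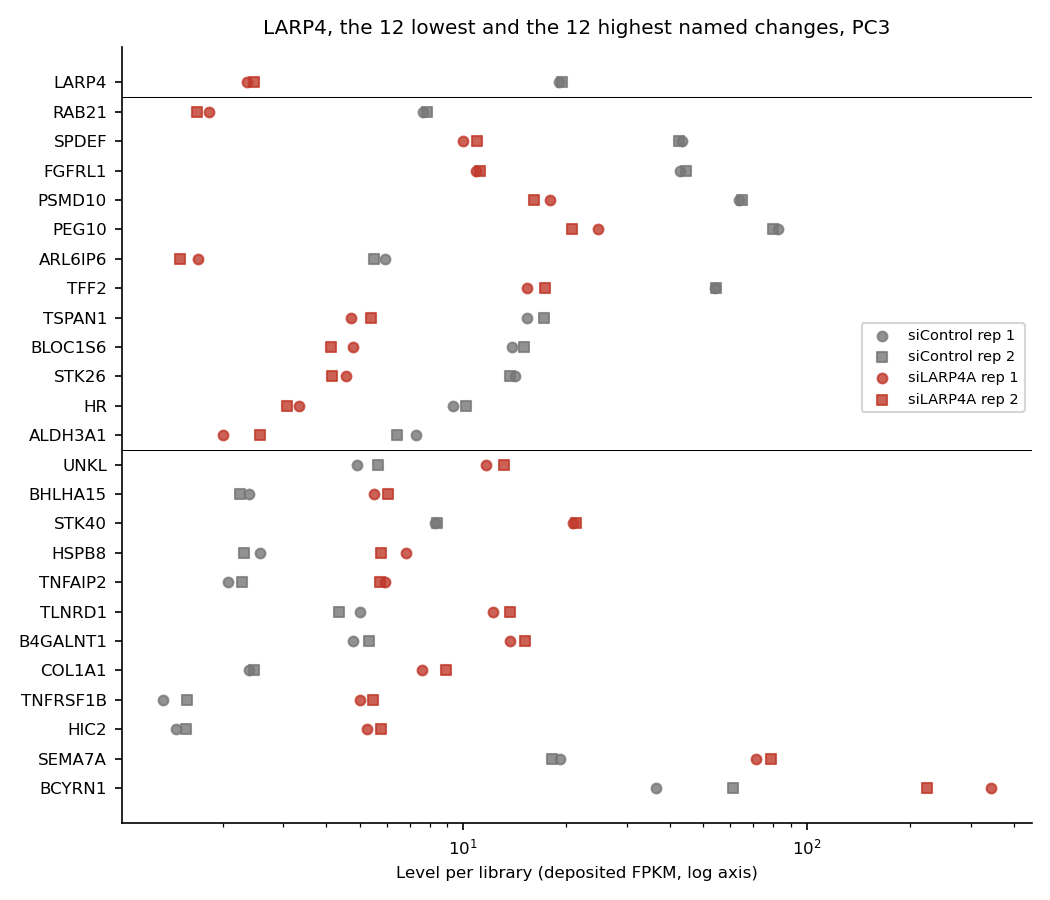
Each row is 1 gene and each symbol 1 library (circles replicate 1, squares replicate 2, grey siControl, red siLARP4A), placed by its deposited FPKM on a log axis. The lines set off LARP4, the 12 lowest and the 12 highest named changes. In every row the red symbols lie apart from the grey ones, and only BCYRN1 has replicates that are far from each other.

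Among the 6 most abundant genes that changed at least 1.5-fold, FTL rose and the other 5 fell. FTL, the light chain of the iron store ferritin, was at 815 and 818 FPKM with siControl and at 1270 and 1240 FPKM with siLARP4A (log2 fold change 0.63, SE 0.035, adjusted p = 3.7e-09). COX7C, a small subunit of cytochrome c oxidase, went from 705 and 675 FPKM to 256 and 290 FPKM, the largest fall of the 6 (log2 fold change -1.33, SE 0.058, adjusted p = 3.9e-10). RPL5, a ribosomal protein that binds the 5S RNA, went from 899 and 913 FPKM to 504 and 522 FPKM (log2 fold change -0.81, SE 0.036, adjusted p = 4e-10). Both genes host snoRNAs on the same strand. OAZ1 (ornithine decarboxylase antizyme) and DRAP1 (a repressor of transcription) had log2 fold changes of -0.59 and -0.6. S100A6, a calcium-binding protein, went from 1860 and 1830 FPKM to 1190 and 1180 FPKM (log2 fold change -0.63). With the deduplicated table of siControl replicate 2 in place of its full table, the value of S100A6 was -0.34 (adjusted p = 0.12). No other library has such a table.

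Of the 79 cytosolic ribosomal protein genes, 55 fell and 1 rose (the shares over all genes were 16.1% and 17.6%), with a median log2 fold change of -0.17. The largest called fall after that of RPL5 was that of RPS16, a small-subunit protein, from 1080 and 998 FPKM to 726 and 797 FPKM (log2 fold change -0.44, SE 0.06). RPL3, at the peptidyl transferase centre, and RPS6, the target of S6 kinase, both had values of -0.34. With the deduplicated table of siControl replicate 2 these were -0.18 (adjusted p = 0.19) for RPL3 and -0.13 (adjusted p = 0.46) for RPS6. RPSA, the laminin-binding ribosomal protein, was the member that rose, from 934 and 986 FPKM to 1040 and 1060 FPKM (log2 fold change 0.14, adjusted p = 0.0063). RPSA stood at 0.12 without siControl replicate 1 (adjusted p = 0.065) and with only the 4 libraries of the contrast in the fit (adjusted p = 0.11). Of the 47 members with a pyrimidine run at a listed start 32 fell, and of the 16 in the table without one 15 fell, each group at a median of -0.18. Over all 862 tested genes with the run, 22.5% fell and 15.2% rose, beside 17.1% and 18.5% of all 12073 tested genes in the table. With the deduplicated table of siControl replicate 2 in place of its full one, 1 member fell and 2 rose, at a median of 0.03, and RPS16 stood at -0.15 (adjusted p = 0.59). Deduplication removes proportionally more fragments from abundant genes, and it was applied to 1 library only. With that library left out, 56 members fell and 2 rose (median -0.21), and without siControl replicate 1, 32 fell and 0 rose (median -0.14). Ribosomal protein genes have many processed pseudogenes, so single members are uncertain.

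Of 75 mitochondrial ribosomal protein genes 34 fell, 1 rose and 40 were not called (median -0.19). Of 74 nuclear-encoded respiratory chain genes 39 fell, COX7C among them, 2 rose and 33 were not called (median -0.19). MRPL11, a large-subunit protein, went from 34.0 and 31.7 FPKM to 15.7 and 16.5 FPKM (log2 fold change -1.02, SE 0.063, adjusted p = 1.3e-08). MRPL36 went from 63.7 and 56.9 FPKM to 32.4 and 41.5 FPKM, and MRPL35 rose from 8.15 and 8.21 FPKM to 10.1 and 9.87 FPKM. NDUFA7, a complex I subunit, went from 116 and 111 FPKM to 68.6 and 71.4 FPKM (log2 fold change -0.69, SE 0.064, adjusted p = 9.5e-07). NDUFA5, another complex I subunit, rose by 0.31 on the log2 scale. UQCRC1 of complex III had a value of 0.15 (adjusted p = 0.04). Its call was lost without siControl replicate 2 (0.1) and without siLARP4A replicate 2 (0.09). It was lost under many other alternatives too, such as DESeq2 (0.14, adjusted p = 0.073), limma (0.14, adjusted p = 0.078) and a replicate block in edgeR (0.15, adjusted p = 0.06). Without siControl replicate 1 the falls numbered 21 in the mitochondrial ribosomal list and 24 in the respiratory list, and without siLARP4A replicate 1 the respiratory median was -0.12. Of 21 snoRNA host genes 9 fell and 0 rose (median -0.22). GAS5, whose exons make a short-lived terminal oligopyrimidine RNA, went from 56.2 and 55.2 FPKM to 33.2 and 36.2 FPKM (log2 fold change -0.67, SE 0.073), and SNHG8 had a value of -0.53. ZFAS1 had a value of -0.23, which was -0.11 (adjusted p = 0.13) with an offset for model length and -0.19 (adjusted p = 0.067) without siControl replicate 1. Of the snoRNA host genes 5 fell without siControl replicate 1.

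These lists hold short models, with median lengths of 904 bases for cytosolic ribosomal proteins, 1358 for mitochondrial ones, 1003 for the respiratory chain and 1047 for snoRNA hosts, beside 3206 for all genes. Fold changes varied with model length over the whole table. Of 1247 genes with models under 1000 bases 3.61% rose and 21.5% fell, and of 2784 genes with models of at least 6000 bases 26.0% rose and 13.4% fell. The ratio of siLARP4A replicate 1 to replicate 2 also varied with length, from a median log2 value of -0.07 in the shortest models to 0.12 in the longest, whereas the siControl ratio stayed between -0.01 and 0.03. With an offset for model length fitted in each library, 33 cytosolic ribosomal protein genes fell and 3 rose (median -0.08), and the mitochondrial ribosomal median was -0.1. Some lists below with more rises than falls hold long models. Median lengths were 5454 bases for the matrix list, 6226 for semaphorins, 4833 for TGF-beta and BMP and 4116 for EGF and FGF. Others were shorter than that of all genes, at 2543 for NRF2 targets and 2728 for p53 targets. Beyond these values, the part of model length in the falls and rises was not tested. Without siControl replicate 1 fewer genes were called lower in other lists too, among them 10 of the endosomal list and 3 of the immediate early list, whose full counts are given below.

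**Figure D3:**
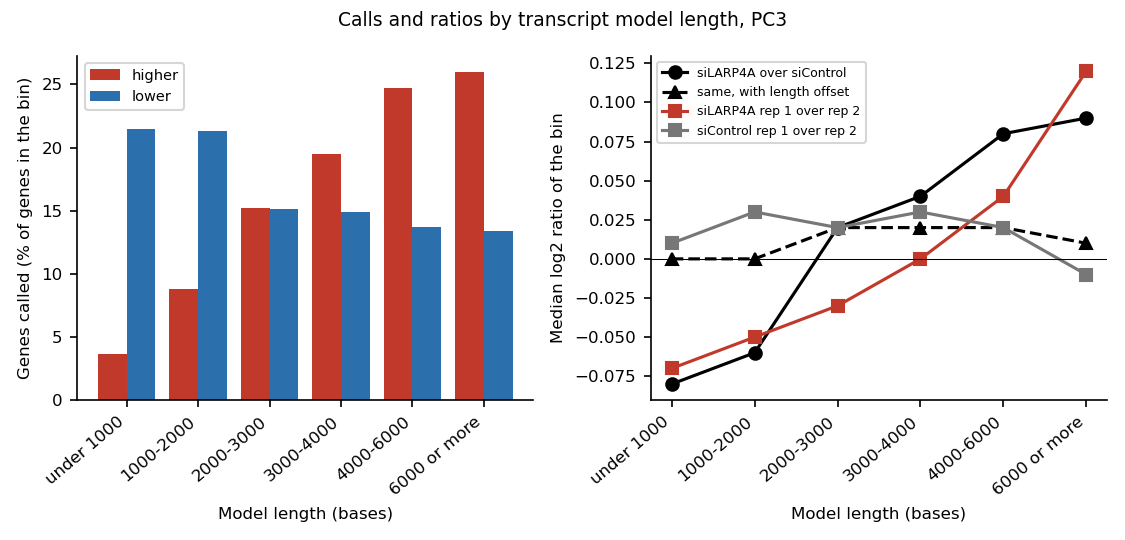
Left, the share of genes called higher (red) or lower (blue) in 6 bins of transcript model length, and right, the median log2 ratio in the same bins for siLARP4A over siControl (black circles), the same with a length offset (triangles), and replicate 1 over replicate 2 within siLARP4A (red) and within siControl (grey). The share called higher grew from 3.61% to 26.0% across the bins, and the length offset brought the bin medians to between 0 and 0.02.

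Translation factors did not move in 1 direction: of 47 genes 13 fell and 8 rose (median -0.03). EIF4A2, a helicase of the cap-binding complex, went from 93.3 and 95.2 FPKM to 64.6 and 65.7 FPKM (log2 fold change -0.52, SE 0.044, adjusted p = 3.2e-07), and EIF2S2, a subunit of eIF2, had a value of -0.48. EIF4EBP2, a repressor of cap-dependent initiation, rose from 35.9 and 35.3 FPKM to 53.7 and 53.3 FPKM (log2 fold change 0.6, SE 0.045, adjusted p = 9.7e-08). The elongation factor EEF1A1, which has a pyrimidine run at its start, was at 1650 and 1890 FPKM with siControl and at 1770 and 1690 FPKM with siLARP4A, and the groups overlapped (log2 fold change -0.02, adjusted p = 0.8). EEF2 had a value of -0.16, which was -0.11 (adjusted p = 0.086) without siControl replicate 1 and -0.05 (adjusted p = 0.72) with the deduplicated table. EIF3C had a value of 0.81 (adjusted p = 0.025) from levels of 5.8, 11.8, 14.4 and 16.3 FPKM. It has a near-identical copy, and its value was 0.41 (adjusted p = 0.26) without siControl replicate 1, 0.72 (adjusted p = 0.092) without siLARP4A replicate 2 and 1.4 without siControl replicate 2.

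Of the 20 genes of the La-related family and of poly(A) binding, 4 rose and 4 fell, LARP4 among them. PABPC1, the poly(A)-binding protein that LARP4A contacts, was at 719 and 704 FPKM with siControl and at 859 and 799 FPKM with siLARP4A (log2 fold change 0.23, SE 0.039, adjusted p = 0.00027). TOB1, an adaptor that recruits the CCR4-NOT deadenylase, fell from 29.0 and 30.9 FPKM to 18.6 and 17.3 FPKM (log2 fold change -0.72, SE 0.065, adjusted p = 7.3e-07). LARP1, the La-related protein that binds terminal oligopyrimidine mRNAs, had a value of -0.24 (adjusted p = 0.00072). LARP6, which binds collagen mRNAs, had a value of 0.36, and 0.25 (adjusted p = 0.072) without siControl replicate 1. PABPC4 was not called (log2 fold change 0.1, adjusted p = 0.056). Of 42 mRNA decay genes 8 fell and 5 rose (median -0.03, and -0.09 without siLARP4A replicate 1 and 0.04 without replicate 2). DCP2, the decapping enzyme, rose from 2.0 and 1.82 FPKM to 4.09 and 3.71 FPKM (log2 fold change 1.04, SE 0.093, adjusted p = 6e-07), and its activator DCP1A had a value of 0.35. The deadenylases CNOT6 and CNOT6L had values of -0.45 and -0.37, the second of which was -0.27 (adjusted p = 0.087) without siControl replicate 2. The CCR4-NOT scaffold CNOT1 and the exonuclease XRN1 were not called (-0.15, adjusted p = 0.081, and 0.05, adjusted p = 0.8).

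Genes of G1/S and DNA replication were mostly lower. Of 57 members 33 fell and 4 rose, with a median log2 fold change of -0.21. UNG, the glycosylase that removes uracil from DNA, went from 51.5 and 54.7 FPKM to 17.9 and 17.2 FPKM (log2 fold change -1.58, SE 0.062, adjusted p = 1.3e-10). PCNA, the sliding clamp of DNA polymerases, went from 139 and 143 FPKM to 87.6 and 89.2 FPKM (log2 fold change -0.66, SE 0.052, adjusted p = 1.7e-07). CCNE2, a G1/S cyclin, had a value of -0.82, and the helicase subunit MCM2 had one of -0.19, which was -0.14 (adjusted p = 0.1) without siControl replicate 1. CDC25A, the phosphatase that activates CDK2, rose from 13.6 and 12.1 FPKM to 21.8 and 22.1 FPKM (log2 fold change 0.79, SE 0.083, adjusted p = 3.3e-06). E2F7, an atypical E2F repressor, rose from 13.1 and 13.8 FPKM to 23 and 20.8 FPKM (log2 fold change 0.71, SE 0.065). Of the 25 members with an E2F-type motif in the promoter of any listed start 17 fell and 2 rose (median -0.23). Among them were PCNA, lower, and CDC25A, higher, though the PCNA motif lies at another start than that of its counted model. Of the 22 in the table without it 10 fell and 2 rose (median -0.12). Over all 653 tested genes with the motif, 21.3% fell and 17.8% rose.

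Mitotic genes were split. Of 56 G2/M genes 12 rose and 9 fell, with a median of 0.03, the same as over all genes. With the 6 PC3 libraries alone in the fit 7 rose, and without siLARP4A replicate 1 the median was -0.06. In bulk RNA, fewer cells in a phase or of a kind and less RNA per cell cannot be told apart. ANLN, an actin-binding protein of the cleavage furrow, rose from 42.3 and 44.2 FPKM to 59.2 and 53.7 FPKM (log2 fold change 0.4, SE 0.054), and the separase gene ESPL1 had a value of 0.45. AURKA, a kinase of the centrosome, fell from 43.7 and 45.8 FPKM to 27.7 and 28.5 FPKM (log2 fold change -0.66, SE 0.056, adjusted p = 3.9e-07), and CENPM at the centromere had a value of -0.82. The proliferation marker MKI67 was at 19.2 and 21.8 FPKM with siControl and at 24.0 and 17.5 FPKM with siLARP4A, and the groups overlapped (log2 fold change 0.03, adjusted p = 0.89). CCNB1 and TOP2A were not called (-0.08, adjusted p = 0.25, and 0.13, adjusted p = 0.11). Of 40 genes of homologous recombination and Fanconi repair 8 fell and 3 rose (median -0.02). Without siLARP4A replicate 2 these counts were 4 and 6 (median 0.03), without siControl replicate 1 they were 4 and 1 (median 0.01), and without siControl replicate 2 they were 5 and 3. The helicase gene RAD54L had a value of -0.49, the nuclease genes MRE11 and DNA2 had values of -0.42 and 0.35, and RAD50 had one of 0.37. The value of RAD50 was 0.23 (adjusted p = 0.13) without siLARP4A replicate 1 and 0.36 (adjusted p = 0.051) without siControl replicate 1.

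A list of cell cycle inhibitors and other genes known as p53 targets, which also holds cyclin D1, was more often higher. PC3 is known to lack functional p53. Of 27 tested, 12 rose, cyclin D1 among them, and 2 fell (median 0.21). CDKN1A, the CDK inhibitor p21, was at 8.56 and 9.02 FPKM with siControl and at 18.0 and 20.4 FPKM with siLARP4A (log2 fold change 1.14, SE 0.094, adjusted p = 2.9e-07). BTG2, an antiproliferative partner of the CCR4-NOT complex, was at 0.674 and 0.693 FPKM and at 1.61 and 1.41 FPKM (log2 fold change 1.16, SE 0.22, adjusted p = 0.00069). Cyclin D1 (CCND1) rose from 163 and 160 FPKM to 215 and 217 FPKM (log2 fold change 0.43, SE 0.036, adjusted p = 3.1e-07). The death receptor gene TNFRSF10B had a value of -0.22, and CDKN2A, which encodes p16, had one of -0.2 (adjusted p = 0.048) that was -0.11 (adjusted p = 0.39) without siControl replicate 1 and -0.08 (adjusted p = 0.41) with the length offset. It was -0.18 (adjusted p = 0.15) without siLARP4A replicate 1 and -0.22 (adjusted p = 0.065) without siLARP4A replicate 2. Of 30 genes of the BCL2 family and the caspases 10 rose and 4 fell (median 0.06), and 2 fell without siControl replicate 2 or without siLARP4A replicate 1. The BH3-only genes BMF and BBC3 had values of 0.8 and 0.67, and the survival gene MCL1 rose from 65.8 and 65.5 FPKM to 79.2 and 76.5 FPKM (log2 fold change 0.26). BMF stood at 0.69 (adjusted p = 0.056) without siControl replicate 2 and at 0.72 (adjusted p = 0.05) without siLARP4A replicate 1. BBC3 stood at 0.53 (adjusted p = 0.057) without siControl replicate 1. BCL2L1 was not called (-0.04, adjusted p = 0.65), the apoptosis inhibitor XIAP had a value of -0.3, which was -0.2 (adjusted p = 0.066) without siLARP4A replicate 2, and BOK had one of -0.29, which was -0.25 (adjusted p = 0.094) without siControl replicate 2 and -0.25 (adjusted p = 0.069) without siLARP4A replicate 1.

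Genes of glycolysis and of the hypoxia response fell together with those of cholesterol synthesis. Of 36 glycolysis and hypoxia genes 22 fell and 2 rose (median -0.26), and of 34 cholesterol genes 18 fell and 3 rose (median -0.22). BNIP3, a mitophagy receptor induced by hypoxia, went from 106 and 103 FPKM to 47.2 and 42.7 FPKM (log2 fold change -1.2, SE 0.077, adjusted p = 2.1e-08). The glucose transporter gene SLC2A1 went from 52.2 and 47.9 FPKM to 28.5 and 28.7 FPKM (log2 fold change -0.79, SE 0.072, adjusted p = 7.3e-07). The prolyl hydroxylase gene EGLN3 had a value of -0.87. CA12, a carbonic anhydrase, had a value of 0.36 and the peptide hormone gene ADM one of 0.33, which was 0.29 (adjusted p = 0.093) without siControl replicate 2 and 0.22 (adjusted p = 0.12) without siLARP4A replicate 2. VEGFA was at 24.7 and 24.1 FPKM with siControl and at 22.2 and 23.6 FPKM with siLARP4A and was not called (adjusted p = 0.7). FDFT1, which makes squalene, went from 35.0 and 34.5 FPKM to 20.3 and 20.8 FPKM (log2 fold change -0.74, SE 0.057, adjusted p = 1.3e-07), and the sterol reductase gene TM7SF2 had a value of -0.85. MYLIP, a ubiquitin ligase, had a value of 0.55. HMGCS1 and the cholesterol exporter gene ABCA1 were not called (0.15, adjusted p = 0.087, and -0.06, adjusted p = 0.81).

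Among epithelial identity genes 13 of 36 fell and 5 rose (median -0.04), SPDEF among the falls. The median was -0.17 without siLARP4A replicate 2 and 0.03 without siControl replicate 1, and 8 fell without siControl replicate 1, siControl replicate 2 or siLARP4A replicate 1. EHF, an ETS factor related to SPDEF, was at 2.64 and 2.25 FPKM with siControl and at 0.488 and 0.473 FPKM with siLARP4A, 19.9% of the control level (log2 fold change -2.33, SE 0.17, adjusted p = 7.8e-08). E-cadherin (CDH1) was at 3.66 and 3.23 FPKM and at 3.78 and 3.29 FPKM, and the groups overlapped (adjusted p = 0.81). The simple-epithelium keratin KRT8 rose from 203 and 207 FPKM to 283 and 301 FPKM (log2 fold change 0.52, SE 0.04, adjusted p = 1.2e-07), though KRT18 lies on the other strand of the same locus. LAMB3, a laminin chain of epithelial basement membranes, rose from 30.2 and 29.5 FPKM to 45.9 and 47.0 FPKM. The 10 epithelial carcinoma markers summed to 1245 and 1232 FPKM with siControl and to 1425 and 1490 FPKM with siLARP4A, and 3 rose and 2 fell. Among them CLDN4 had a value of 0.31, EPCAM one of -0.37 and KRT7 one of -0.36. The call of KRT7 (adjusted p = 0.045) ended under 8 of 16 alternatives, among them those without siControl replicate 1 (-0.29, adjusted p = 0.22), without siControl replicate 2 (-0.42, adjusted p = 0.068) and without siLARP4A replicate 1 (-0.22, adjusted p = 0.32). HOXB13, a homeobox factor of the prostate, went from 161 and 150 FPKM to 112 and 117 FPKM (log2 fold change -0.42, SE 0.049, adjusted p = 7.6e-06). The prostate gene SLC45A3 had a value of 0.24 (adjusted p = 0.024), which was 0.28 (adjusted p = 0.051) without siControl replicate 1, 0.2 (adjusted p = 0.16) without siControl replicate 2 and 0.22 (adjusted p = 0.08) without siLARP4A replicate 2.

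Mesenchymal genes rose more often than they fell, 9 against 5 of 24 (median 0.19). The falls numbered 3 without siControl replicate 2 or siLARP4A replicate 2, and the median was 0.11 without siLARP4A replicate 1. ZEB2, a repressor of epithelial genes, rose from 0.114 and 0.13 FPKM to 0.304 and 0.33 FPKM, low levels in every library (log2 fold change 1.37, SE 0.16, adjusted p = 1.1e-05). FN1, fibronectin, rose from 8.16 and 9.06 FPKM to 15.8 and 13.0 FPKM (log2 fold change 0.76, SE 0.079, adjusted p = 3.1e-06). Vimentin (VIM) was at 482 and 462 FPKM and at 500 and 466 FPKM, and the groups overlapped (adjusted p = 0.47). N-cadherin (CDH2) had a value of 0.2, also 0.2 (adjusted p = 0.052) without siControl replicate 1. ZEB1 had one of 0.37, which was 0.35 (adjusted p = 0.073) without siControl replicate 2 and 0.14 (adjusted p = 0.29) without siLARP4A replicate 1. S100A4, a motility-associated calcium-binding protein, fell from 87.5 and 96.4 FPKM to 52.2 and 56.8 FPKM (log2 fold change -0.74, SE 0.067, adjusted p = 7.5e-07), and SPARC, a matrix glycoprotein, had a value of -0.73.

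Of 64 genes of the extracellular matrix, its proteases and the integrins, 28 rose and 14 fell (median 0.21, and 0.12 without siLARP4A replicate 1). Their models have a median length of 5454 bases. Of all genes with models of 4000 to 6000 bases 24.7% rose and 13.7% fell. MMP14, a membrane-bound collagenase, rose from 39.3 and 35.6 FPKM to 64.1 and 63.2 FPKM (log2 fold change 0.78, SE 0.06, adjusted p = 1.3e-07). Urokinase (PLAU) rose from 97.5 and 100 FPKM to 113 and 114 FPKM (log2 fold change 0.22, SE 0.037, adjusted p = 0.0003). The other plasminogen activator gene, PLAT, fell from 44.7 and 43.4 FPKM to 16.7 and 18.3 FPKM (log2 fold change -1.32, SE 0.063, adjusted p = 7.8e-10). The collagenase gene MMP13 went from 5.21 and 5.22 FPKM to 2.12 and 1.77 FPKM (log2 fold change -1.4, SE 0.18). ITGB4, the hemidesmosome integrin, fell from 92.5 and 86.9 FPKM to 58.5 and 60.2 FPKM (log2 fold change -0.58, SE 0.052, adjusted p = 5.9e-07). COL1A2 fell from 5.21 and 4.29 FPKM to 3.08 and 2.59 FPKM (log2 fold change -0.72), so the genes of both type I collagen chains moved in opposite directions. The 15 mesenchymal and bone markers, which check for cells of that kind, summed to 106.5 to 110.3 FPKM with siControl and to 104.1 to 106.9 FPKM with siLARP4A, and 1 rose and 3 fell. COL5A2, CDH11 and TWIST1 were present, whereas FAP and TWIST2 were at 0 and THY1 had at most 1 fragment. Their part in the matrix result was not tested.

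Of 73 genes of the actin cytoskeleton and its regulators 29 rose and 10 fell (median 0.13). TLNRD1 rose from 5.02 and 4.36 FPKM to 12.2 and 13.7 FPKM (log2 fold change 1.48, SE 0.084, adjusted p = 5.3e-09). FSCN1, the filopodial bundling protein fascin, rose from 327 and 321 FPKM to 419 and 437 FPKM (log2 fold change 0.42, SE 0.039, adjusted p = 1.2e-06). MYL9, a myosin light chain, was at 0.46 and 0.547 FPKM and at 1.27 and 1.38 FPKM. The exchange factors ARHGEF12 and TIAM1 fell, with values of -0.53 and -0.41, and the GTPase gene RHOB was not called (0.12, adjusted p = 0.2). With only the 4 libraries of the contrast in the fit, 20 members rose. Of 30 semaphorin, plexin and neuropilin genes 11 rose and 5 fell (median 0.25, and 0.14 without siLARP4A replicate 2). SEMA6B rose from 0.49 and 0.299 FPKM to 0.927 and 1.43 FPKM (log2 fold change 1.57, SE 0.23), and SEMA5A and SEMA3B fell, with values of -0.78 and -0.68. Of 52 endosomal trafficking genes 16 fell and 12 rose (median 0.03). BLOC1S6, a subunit of the BLOC-1 complex of endosome-derived organelles, went from 13.9 and 15 FPKM to 4.77 and 4.14 FPKM (log2 fold change -1.67, SE 0.083, adjusted p = 1.3e-09). The early endosome tether EEA1 rose from 5.64 and 6.19 FPKM to 10.4 and 8.78 FPKM (log2 fold change 0.71, SE 0.081), and RAB31 had a value of 0.4. With only the 4 libraries of the contrast in the fit 5 members of this list rose, and 7 rose without siControl replicate 1 or replicate 2.

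**Figure D4:**
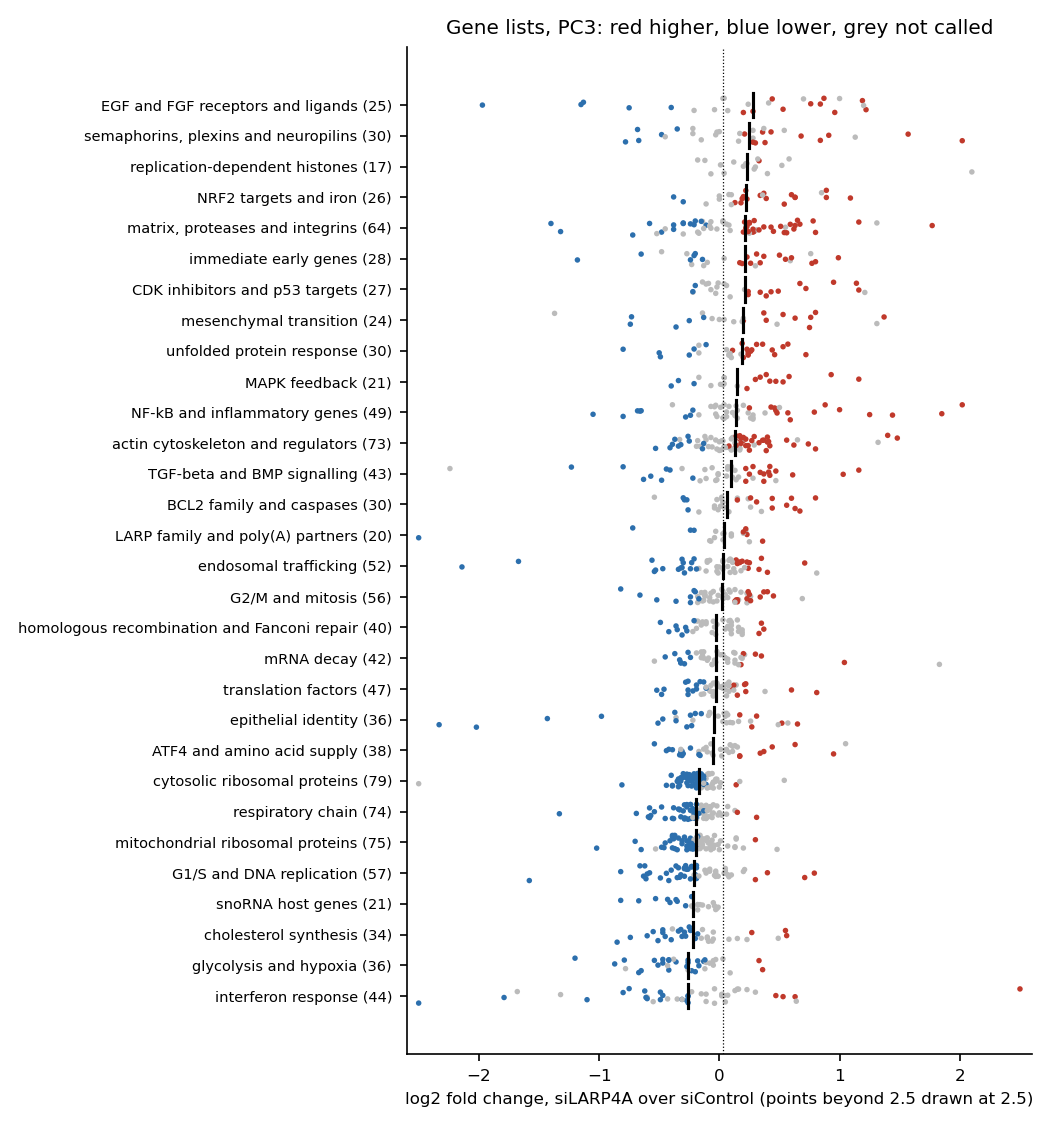
Each row is 1 of the 30 gene lists with the number of members tested, and each point 1 member at its log2 fold change of siLARP4A over siControl in PC3 (red called higher, blue called lower, grey not called; the 4 members beyond 2.5 are drawn at the edge). Short black lines are list medians and the dotted line is the median of all genes, 0.03. Medians ran from -0.26 for the interferon response and for glycolysis and hypoxia to 0.28 for EGF and FGF receptors and ligands.

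Receptors and ligands of the EGF and FGF families changed in both directions. Of 25 tested, 10 rose and 5 fell (median 0.28). Leaving out each library in turn, 6 or 7 rose and 3 to 5 fell, the fewest falls without siControl replicate 1, and the median ran from 0.36 to 0.5, the highest without siControl replicate 2. FGF2, a heparin-binding growth factor, went from 5.14 and 5.28 FPKM to 2.42 and 2.22 FPKM (log2 fold change -1.15, SE 0.077, adjusted p = 3.1e-08). FGF5 rose from 1.23 and 1.6 FPKM to 2.93 and 2.52 FPKM, and EGF was at 0.384 and 0.312 FPKM and at 0.818 and 0.751 FPKM. The receptor EGFR was at 16.7 and 18.3 FPKM and at 22.6 and 19.6 FPKM (log2 fold change 0.28, adjusted p = 0.0052), and its value was 0.17 (adjusted p = 0.088) without siLARP4A replicate 1 and 0.24 (adjusted p = 0.053) without siControl replicate 1. With genes of a mean FPKM under 5 left out, 4 members of the list rose at a median of 0.03. Of 21 MAPK feedback genes 10 rose and 3 fell (median 0.15, and 0.28 without siLARP4A replicate 1 and 0.09 without siControl replicate 2). DUSP2, a nuclear MAPK phosphatase, rose from 7.53 and 7.79 FPKM to 15.6 and 18.5 FPKM (log2 fold change 1.16, SE 0.1, adjusted p = 4.4e-07), SPSB1 had a value of 0.93 and SPRY4 one of 0.42. The RAS inhibitors SPRED1 and SPRED2 had values of -0.34 and -0.4, and DUSP6, an ERK phosphatase, was not called (-0.17, adjusted p = 0.052).

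Of 28 immediate early genes 13 rose and 6 fell (median 0.21). EGR1, a zinc-finger factor induced within minutes of growth factor signals, was the lowest, at 5.13 and 7.45 FPKM with siControl and at 2.22 and 3.41 FPKM with siLARP4A (log2 fold change -1.18, SE 0.2, adjusted p = 0.00035). JUN rose from 44.4 and 41.2 FPKM to 59.0 and 60.8 FPKM (log2 fold change 0.5, SE 0.051), and FOS was not called (-0.48, adjusted p = 0.088). ZFP36 and ZFP36L2, related proteins that direct decay of AU-rich mRNAs, moved in opposite directions (0.8 and -0.65), and KLF2 had a value of 0.99. Of 43 TGF-beta and BMP genes 14 rose and 8 fell (median 0.1, and 0.06 without siLARP4A replicate 1). SMAD5, a transducer of BMP signals, went from 8.7 and 8.87 FPKM to 3.95 and 3.43 FPKM (log2 fold change -1.23, SE 0.076, adjusted p = 1.2e-08). ID1, a target of BMP signals, fell from 59.4 and 58.3 FPKM to 41.4 and 36.8 FPKM (log2 fold change -0.57, SE 0.07), and the inhibitory SMAD6 had a value of -0.8. The TGF-beta receptor gene TGFBR2 rose from 18.4 and 19.1 FPKM to 38.3 and 37.5 FPKM (log2 fold change 1.03, SE 0.05, adjusted p = 1e-09). SMAD3 was at 18.7 and 18.5 FPKM and at 18.1 and 18.4 FPKM and was not called (adjusted p = 0.86).

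Genes of the interferon response were more often lower, 16 against 4 higher of 44 tested (median -0.26). IRF9, the DNA-binding part of the interferon-activated complex, went from 11.3 and 9.0 FPKM to 5.96 and 5.54 FPKM (log2 fold change -0.8, SE 0.12, adjusted p = 7.3e-05). BST2, the virus-tethering protein tetherin, was at 4.67, 3.41, 2.53 and 1.0 FPKM (log2 fold change -1.1, adjusted p = 0.0033). Its value was -0.84 (adjusted p = 0.056) without siControl replicate 1, -1.99 without siLARP4A replicate 1 and -0.65 without siLARP4A replicate 2. IFI44 rose from 4.83 and 4.93 FPKM to 8.13 and 6.74 FPKM (log2 fold change 0.63, SE 0.094). SAMD9L had a value of 0.53, which was 0.3 (adjusted p = 0.22) without siLARP4A replicate 1 and 0.49 (adjusted p = 0.083) without siControl replicate 2. IFIT1 was at 3.13 and 2.46 FPKM and at 2.81 and 2.81 FPKM, and the groups overlapped (adjusted p = 0.91). Of the 23 tested members with the response element letters in a promoter 8 fell and 2 rose, and of the 10 without them 5 fell and 1 rose. Over all 481 tested genes with these letters 17.7% rose and 14.8% fell (median 0.04). Without siControl replicate 1 the falls of the list numbered 9 (median -0.17), and without siLARP4A replicate 2 its median was -0.14.

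Of 49 NF-kB and inflammatory genes 14 rose and 8 fell (median 0.14). TNFAIP2 rose from 2.07 and 2.28 FPKM to 5.94 and 5.74 FPKM (log2 fold change 1.44, SE 0.078, adjusted p = 2.8e-09), and the NF-kB inhibitor gene NFKBIA had a value of 0.46. The neutrophil chemokine genes CXCL1 and CXCL8 fell, the first from 31.1 and 29.0 FPKM to 14.2 and 14.6 FPKM (log2 fold change -1.05, SE 0.11, adjusted p = 4.1e-06) and the second from 28.6 and 25.6 FPKM to 17.3 and 16.4 FPKM (-0.68, SE 0.1). The decoy receptor gene TNFRSF11B, also known as osteoprotegerin, had a value of -0.8, and -0.52 (adjusted p = 0.079) without siControl replicate 2. Of the 10 blood markers CD3E, MS4A1 and HBB were at 0 and PTPRC had at most 2 fragments. Of the 3 that could be tested 2 rose and 0 fell (median 0.63). LYZ, which encodes lysozyme, had 15 and 14 fragments with siControl and 40 and 28 with siLARP4A (log2 fold change 0.99, adjusted p = 0.037). The list summed to 16.15 and 16.74 FPKM with siControl and to 19.95 and 22.22 FPKM with siLARP4A, nearly all of it CD68, which many cell types express (log2 fold change 0.33). Their part in the inflammatory counts was not tested.

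Among stress responses, of 30 unfolded protein response genes 16 rose and 6 fell (median 0.19). HSPA5, the main chaperone of the endoplasmic reticulum, rose from 213 and 218 FPKM to 267 and 262 FPKM (log2 fold change 0.31, SE 0.034, adjusted p = 5.5e-06), and DNAJB9 and WFS1 had values of 0.72 and 0.57. Calnexin (CANX) fell from 98.2 and 96.3 FPKM to 58.6 and 52.3 FPKM (log2 fold change -0.8, SE 0.048, adjusted p = 9.9e-09), MANF had a value of -0.5 and XBP1 was not called (0.09, adjusted p = 0.21). Of 38 genes of the ATF4 pathway and amino acid supply 12 fell and 7 rose (median -0.05, and -0.08 without siLARP4A replicate 1 and 0.0 without replicate 2). The stress-induced genes SESN2 and SLC7A11 had values of 0.95 and 0.63, while SHMT2 of serine metabolism and NUPR1 had values of -0.44 and -0.54. ATF4 itself was not called (-0.11, adjusted p = 0.093). Of 26 NRF2 target and iron genes 16 rose and 2 fell (median 0.22). HMOX1, heme oxygenase, rose from 11.8 and 11.9 FPKM to 17.9 and 17.7 FPKM (log2 fold change 0.6, SE 0.074, adjusted p = 1.6e-05), OSGIN1 and AKR1C1 each had a value of 0.89, and the NADPH-producing enzymes ME1 and PGD had values of -0.38 and -0.3. NQO1 had a value of 0.13 (adjusted p = 0.039) that missed the threshold under 13 of 16 alternatives, with an adjusted p of 0.13 without siControl replicate 1, 0.11 without siControl replicate 2 and 0.2 without siLARP4A replicate 2. Replication-dependent histone mRNAs have no poly(A) tail, so these poly(A)-selected libraries do not measure them well. Of 17 genes of this kind H2BC12, which overlaps H4C9 on the other strand, rose (0.33, adjusted p = 0.0097) and none fell. Its adjusted p was 0.051 without siControl replicate 2.

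In MG63, siLARP4A left LARP4 at a log2 fold change of -1.96, and the change in PC3 was larger by 1.02 (difference -1.02, SE 0.1, adjusted p = 1.8e-05). Over all genes 24.9% were called in MG63, and the effect differed between the lines for 1619 genes, 10.1%. Several of the lowest genes in PC3 fell in MG63 too, with log2 fold changes there of -1.28 for RAB21, -0.94 for PSMD10, -1.17 for BLOC1S6 and -1.27 for UNG. The falls of these 4 were larger in PC3 (differences -0.86, -0.96, -0.5 and -0.31). SEMA7A rose in both lines, by 2.02 in PC3 and 1.02 in MG63. BCYRN1 had a value of 0.15 in MG63 (adjusted p = 0.67), and the difference between the lines was 2.41 (SE 0.39, adjusted p = 0.0013). TLNRD1 rose by 1.48 and 1.56, and the difference was not called (-0.08, SE 0.12, adjusted p = 0.78). EGR1, CXCL8 and ITGB4 had values of opposite sign in the lines, and each difference was called. EGR1 had values of -1.18 in PC3 and 0.84 in MG63, CXCL8 of -0.68 and 0.81, and ITGB4 of -0.58 and 0.74. ASNS, asparagine synthetase and a target of ATF4, had values of -0.32 in PC3 and 1.51 in MG63 (difference -1.82, SE 0.11, adjusted p = 1.6e-07). In the ATF4 list as a whole, the difference was negative for 26 of 38 genes called and positive for 0, where 5.05% of all genes were called negative and 5.02% positive. Cytosolic ribosomal protein genes were called negative for 25 of 79 and interferon genes for 20 of 44. G1/S genes were called positive for 16 of 57, their median being -0.21 in PC3 and -0.35 in MG63. The calls of the difference over all genes numbered 963 without siControl replicate 1 of PC3.

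**Figure D5:**
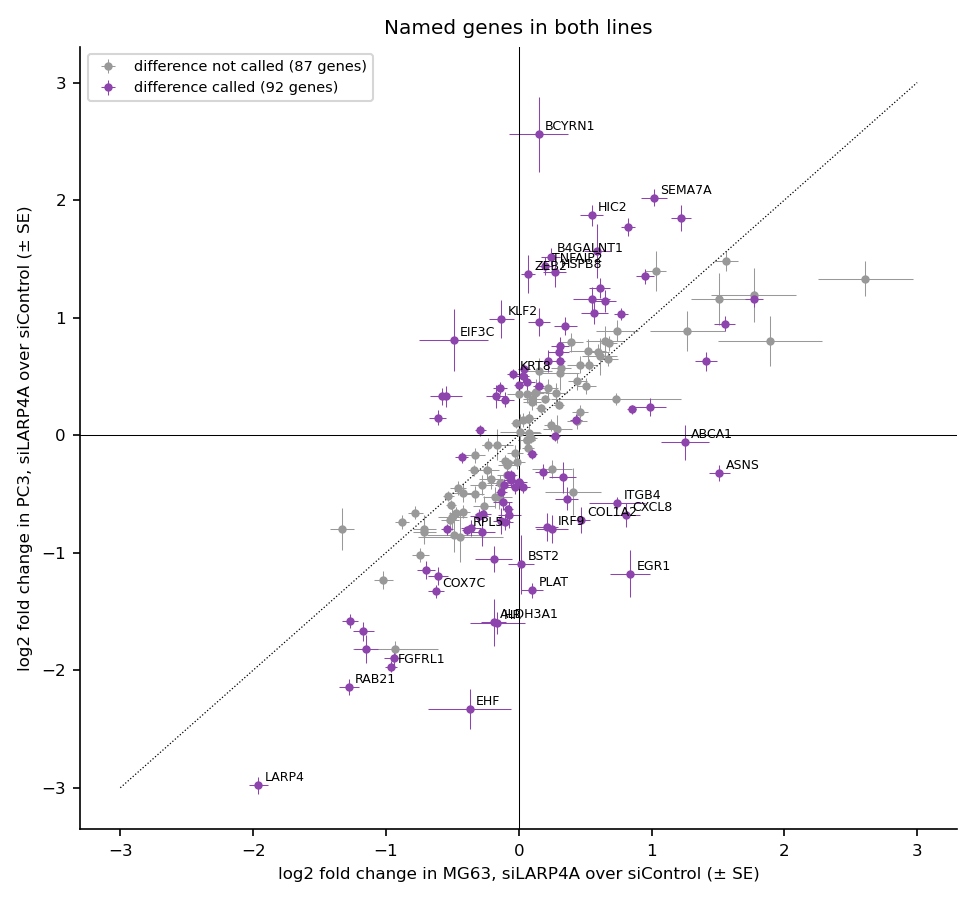
Each point is 1 of 179 named genes with an SE under 0.5 in MG63, placed by its log2 fold change of siLARP4A over siControl in MG63 and in PC3, with bars of 1 SE and a dotted line of equal change. Purple points are the 92 genes whose change differed between the lines by the interaction test at an adjusted p under 0.05, and grey points the others. BCYRN1 and PLAT lie near 0 in MG63 and far from 0 in PC3, while LARP4 and RAB21 are low in both.

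PC3 cells with siLARP4A and with siLARP4B differed directly in 8303 genes, 51.7%. Both comparisons with siControl use the same 2 control libraries, so their values are given side by side and the difference is tested between the siRNA groups alone. In PC3 with siLARP4B, 43% of genes were called against siControl. LARP4 had a value of -0.03 and LARP4B one of -2.45 with siLARP4B, beside -2.98 and -0.04 with siLARP4A. SPDEF, FGFRL1 and COX7C had values of 0.11, 0.03 and 0.07 with siLARP4B, and all were lower with siLARP4A than with siLARP4B (differences -2.13, -2.0 and -1.4). BCYRN1 had a value of 2.4 with siLARP4B, and the difference was not called (0.15, SE 0.26, adjusted p = 0.65). TLNRD1 had a value of -1.51 with siLARP4B, opposite in sign to 1.48 with siLARP4A. Mitotic genes were higher with siLARP4A than with siLARP4B for 54 of 56 and lower for 0, and G1/S genes were higher for 51 of 57 and lower for 1, where 25.4% of all genes were called higher and 26.3% lower. The G2/M median was -1.12 with siLARP4B and 0.03 with siLARP4A, and the G1/S median was -1.03 with siLARP4B and -0.21 with siLARP4A. Cytosolic ribosomal protein genes were lower with siLARP4A for 70 of 79 and higher for 0, and interferon genes lower for 27 of 44 and higher for 1. With siLARP4B against siControl, 34 of these ribosomal genes were higher and 1 lower (median 0.09, and -0.17 with siLARP4A). Of the interferon genes 25 were higher and 2 lower with siLARP4B (median 0.58, and -0.26 with siLARP4A). Over all genes 22.9% were higher and 20% lower with siLARP4B. HMOX1 had values of 2.07 with siLARP4B and 0.6 with siLARP4A (difference -1.47, adjusted p = 8.9e-11).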

How the data were processed

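RNA from transfected PC3 and MG63 cells was poly(A)-selected and sequenced. Per the submitters' processing notes the tools were FastQC, HISAT2, featureCounts and edgeR on hg38, and versions, strand setting and read filters are not given in the sources used here. Per the file headers, the deposited tables hold for each transcript model a fragment count, a signal scaled to the library total (FPM) and an FPKM value made by the authors. The library totals used for depth are those implied by the deposited FPM.

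The tables list 86394 models of 28306 symbols. For each of 28163 symbols on chromosomes 1 to 22 and X, the model whose fragments summed highest across all 12 libraries represented the gene. Genes passing filterByExpr (16066) were fitted in R 4.3.3 with edgeR 4.0.16 (TMM, quasi-likelihood F-test, 6 group means over 12 libraries, Benjamini-Hochberg). The alternatives used DESeq2 1.42.0 and limma 3.58.1 (log2 of FPKM + 1), other filters and subsets of libraries, a replicate block, a length offset and the deduplicated table of siControl replicate 2. The fit was tested on simulated data. Named genes were LARP4 and LARP4B, the 12 lowest and 12 highest called changes (mean FPKM of at least 5 in a group, at least 50 fragments in each library of the higher group, groups not overlapping, a model of at least 200 bases at 1 locus), the 6 most abundant such genes changed at least 1.5-fold, the 2 highest and 2 lowest called members of each list with at least 50 fragments, and preset anchor genes. The members and lists were chosen with earlier results of these data known. An unnamed column in 3 tables, filled for 6 genes, was not used. Some items are not reported here.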

Additional observations from a re-analysis of the deposited data

Results flagged for a closer look

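The siLARP4A effect differed between PC3 and MG63 for 92 named genes by the interaction test of edgeR (adjusted p under 0.05), and by at least 2-fold for 23 of them, 14 lower and 9 higher in PC3. Each value is the log2 fold change in PC3 minus that in MG63. Lower in PC3 were EGR1 (-2.01), EHF (-1.96), ASNS (-1.82), CXCL8 (-1.48), HR (-1.43), PLAT (-1.42), ALDH3A1 (-1.4), ITGB4 (-1.32), ABCA1 (-1.31), COL1A2 (-1.19), BST2 (-1.12), IRF9 (-1.05), LARP4 (-1.02) and FGFRL1 (-1.01). Higher in PC3 were SEMA7A (1.0), HSPB8 (1.12), KLF2 (1.13), TNFAIP2 (1.24), B4GALNT1 (1.28), EIF3C (1.3), ZEB2 (1.31), HIC2 (1.33) and BCYRN1 (2.41). LARP4 itself is in this group, so the depth of the knockdown differed between the lines, and its part in the other differences was not tested.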

How the results depend on the processing

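The fall of LARP4 ranged from -3.01 to -2.95 when each PC3 library was left out in turn. Over the same fits 2093 to 2783 genes were higher and 1802 to 2368 lower, 196 to 279 at least 2-fold higher and 161 to 198 at least 2-fold lower. The effect differed between the lines for 963 to 1734 genes, lowest without PC3 siControl replicate 1, and siLARP4A differed from siLARP4B for 7201 to 8283. Genes at least 2-fold higher numbered 142 with DESeq2, 29 with limma on log2(FPKM + 1) and 43 among genes of a mean FPKM of at least 5, and those at least 2-fold lower 76 with limma and 81 at that FPKM. The last setting tests fewer genes, and a pseudocount of 1 shrinks low genes.

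Deviations of same-numbered PC3 siControl and siLARP4A libraries correlated at 0.001243, so no deviation shared by replicate number was seen. This cannot tell whether same-numbered libraries were made together. With a replicate block 2733 genes were higher and 2497 lower. Of 186 named genes other than LARP4, 165 were called. Of these, 136 were called in the same direction under each of the 16 alternatives that tested them. The alternative with a mean FPKM of at least 5 did not test genes below that level in both groups, such as EHF and ZEB2. Of the 21 not called, 4 kept their direction and stayed so under every alternative that tested them. Of the same 21, 10 passed the threshold under at least 1 alternative, DUSP6 under 9 alternatives and CNOT1 under 6. The genes that changed sign were not called, either as reported or where the sign changed. Leaving out each library in turn, the log2 fold change ranged from -0.16 to 0.22 for IFIT1, -0.22 to 0.24 for MKI67, -0.09 to 0.07 for EEF1A1, -0.06 to 0.17 for CDH1, -0.23 to 0.26 for XRN1, -0.17 to 0.07 for ABCA1 and -0.01 to 0.1 for VIM. SMAD3 ranged from -0.03 to 0.02. With the deduplicated table IFIT1 was at -0.03, MKI67 at -0.0 and EEF1A1 at 0.38. With the length offset IFIT1 was at -0.03, MKI67 at -0.04, CDH1 at -0.01 and XRN1 at -0.03. IFIT1 was also at -0.01 with no filter on low counts and at -0.0 without symbols at several loci. The cause was not tested. The difference between lines could not be fitted with PC3 libraries alone.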
